A study of Homo sapiens with 8 samples.

Results

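The class 3 semaphorins and their receptors were described here across wild-type and SNORA13 knockout fibroblasts, without and with 4-hydroxytamoxifen (4-OHT). The 9 genes were chosen by name: the ligands SEMA3A, SEMA3B, SEMA3C, SEMA3D and SEMA3F, the neuropilins NRP1 and NRP2, and the plexins PLXNA1 and PLXND1. Of these, 8 were listed in both tables of ribosome footprints, out of 11940 genes listed in either table and 10685 in both. SEMA3A was not listed in either table. The genes were named with results of these tables known, and which values led to their choice is not given in the sources used here. Their changes are therefore given as a description, with the calls of a fit over all genes beside them.

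Class 3 semaphorins are secreted guidance proteins, first known for repelling growing axons and also active on endothelial cells, tumour cells and fibroblasts. They act on a receptor complex in which a neuropilin binds the ligand and a plexin carries the signal into the cell, where it switches off small GTPases and loosens adhesion and the actin skeleton. Neuropilins also bind growth factors of the VEGF family, and proteases such as furin cut class 3 semaphorins and alter their activity.

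Ribosome profiling sequences the stretches of mRNA covered by ribosomes. It was performed on the human skin fibroblast line BJ, with every library labelled BJ-HRAS; how HRAS was introduced or driven is not given in the sources used here. The WT clones 15 and 54 and the SNORA13 knockout (KO) clones 66 and 69 were each sampled untreated and treated for 7 days with 100 nM 4-OHT, the ligand commonly used to activate proteins fused to a modified oestrogen receptor. This gave 4 groups of 2 libraries. SNORA13, a small nucleolar RNA, was not listed in either table, so the knockout could not be checked in these values. The libraries without and with 4-OHT were in separate tables, so an effect of 4-OHT and another difference between the tables cannot be told apart. Genotype effects cannot be told apart from differences between the 2 clones of each genotype.

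Values are RPKM, reads per kilobase of the gene's genomic span scaled to library size. Approximate reads behind them, recovered from the values, came to 789842 to 1705806 per library without 4-OHT. The libraries with 4-OHT ranged from 190580 reads (KO clone 66) to 1682693 reads (WT clone 15), with 587919 in WT clone 54 and 979743 in KO clone 69. The shallowest of these, KO clone 66 with 4-OHT, listed 3169 of 11079 genes at 0. A list of 10 fibroblast markers took 6.45% to 8.18% of reads without 4-OHT and 2.48% to 2.96% with it, and all 10 were listed in both tables. The markers did not move together: VIM and THY1 were higher with 4-OHT in each clone, and the others were lower in each. In WT clone 15, VIM went from 618 to 1829 RPKM and THY1 from 71.3 to 109, while COL1A1 went from 1699 to 77.1. Endothelial markers, of interest because endothelial cells carry neuropilins and plexins, took 0.00189% to 0.00444% of reads without and 0.00262% to 0.00645% with 4-OHT. Of the 11 endothelial markers 4 were listed in each table, and CDH5, EMCN, ERG, ESAM, KDR and TEK were not listed or at 0 in both. The listed ones did not move together. TIE1 was higher with 4-OHT in each clone (0.286 to 2.53 RPKM in WT clone 54), and EGFL7 was lower in each (1.01 to 0.614 RPKM in WT clone 54). CLDN5, VWF and PECAM1 had values of 0 in some libraries. In these bulk libraries fewer cells of a type and less RNA per cell cannot be told apart.

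The 250 bases before the start of 4 genes are shown because their footprints behaved differently. SEMA3B and SEMA3C were the ligands with the most reads. NRP2 was the only listed gene called between genotypes, without 4-OHT only, and that call was lost under some settings. PLXNA1 was among the listed genes that passed no test. The bases shown are RefSeq sequences of GRCh38.p14, written 5′ to 3′ on the strand of the gene, for SEMA3B (chr3:50259976-50260225, plus strand), SEMA3C (chr7:80922390-80922639, minus strand), NRP2 (chr2:205682251-205682500, plus strand) and PLXNA1 (chr3:126982865-126983114, plus strand). Capitals mark the GC box (GGGCGG) on either strand and the cyclic AMP response element (TGACGTCA).
SEMA3B: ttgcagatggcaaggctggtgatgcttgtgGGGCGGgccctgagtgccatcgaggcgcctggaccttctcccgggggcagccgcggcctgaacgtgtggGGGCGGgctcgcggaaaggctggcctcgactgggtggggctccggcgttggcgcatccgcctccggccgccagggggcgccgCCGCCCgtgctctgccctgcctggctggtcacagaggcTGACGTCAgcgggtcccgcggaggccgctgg
SEMA3C: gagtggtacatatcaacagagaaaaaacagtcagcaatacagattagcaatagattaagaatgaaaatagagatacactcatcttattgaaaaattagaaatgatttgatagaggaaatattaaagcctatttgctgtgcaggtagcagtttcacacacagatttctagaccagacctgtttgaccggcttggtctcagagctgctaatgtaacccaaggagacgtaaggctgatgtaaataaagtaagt
NRP2: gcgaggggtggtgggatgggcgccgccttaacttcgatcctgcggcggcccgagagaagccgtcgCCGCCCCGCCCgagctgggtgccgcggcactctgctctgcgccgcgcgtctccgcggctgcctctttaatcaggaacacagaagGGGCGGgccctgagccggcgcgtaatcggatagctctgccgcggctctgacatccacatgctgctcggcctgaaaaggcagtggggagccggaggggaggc
PLXNA1: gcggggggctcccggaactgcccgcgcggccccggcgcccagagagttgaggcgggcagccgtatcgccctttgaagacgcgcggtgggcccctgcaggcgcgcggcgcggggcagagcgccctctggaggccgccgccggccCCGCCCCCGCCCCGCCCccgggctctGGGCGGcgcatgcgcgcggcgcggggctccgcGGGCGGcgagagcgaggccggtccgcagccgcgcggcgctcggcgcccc
The SEMA3B window held 1 cyclic AMP response element, a motif present in 1.65% of 35116 promoter windows of the same length, and 3 GC boxes, a motif present in 42.6% of them. SEMA3B has 5 listed starts, and the windows of the other 4 held no cyclic AMP response element. The NRP2 window held 3 GC boxes and the PLXNA1 window 5. None of the searched motifs was in the SEMA3C window, which was 36.4% G and C, against a median of 58% over all windows and 74.4%, 70% and 84.4% in the SEMA3B, NRP2 and PLXNA1 windows. SEMA3C also has a second start, whose window was 77.6% G and C with 3 GC boxes. No window of a listed gene held an AP-1 site (TGACTCA or TGAGTCA, in 4.20% of all windows), an E-box (CACGTG, 6.34%) or TATAAA (10.7%), over 14 windows of 7 genes. The same search gave 9 GC boxes before PLXND1 and 12 before the first start of SEMA3F. A match is a run of letters and not a shown binding site, and the motifs and the windows to print were picked after the sequences and the footprint values had been seen.

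SEMA3B, a ligand known as a candidate tumour suppressor, had the highest value per kilobase of genomic span of the listed genes without 4-OHT. Relative to that value it was the lowest of them with 4-OHT. Its gene, at chromosome 3, 50260226 to 50277546, has the shortest span of the listed genes, introns included, which raises a value per kilobase of span. Without 4-OHT it was at 23.5 and 25.1 RPKM in WT clones 15 and 54 and at 29.5 and 27.8 RPKM in KO clones 66 and 69. With 4-OHT it was at 1.06 and 1.07 RPKM in the WT clones and at 0 and 0.320 RPKM in the KO clones. All 4 libraries with 4-OHT were far below all 4 without. The values with 4-OHT rested on 31 and 11 reads in the WT clones and on 0 and 5 in the KO clones. The 0 of KO clone 66 allows up to 0.909 RPKM, the value of 3 reads in that library, for counting error only. The group means were 22.8-fold lower with 4-OHT in WT clones (24.3 ± 1.12 to 1.06 ± 0.00795 RPKM, SD, n = 2) and 179-fold lower in KO clones (28.7 ± 1.24 to 0.160 ± 0.227 RPKM, SD, n = 2). The KO fold is loose: it was 46.6 with the 0 of clone 66 set to 3 reads and 86.7 within clone 69 alone. Changes were tested by limma-trend over all genes on log2(CPM + 2), where CPM is the same scaled value without division by length, and a gene passed at a Benjamini-Hochberg adjusted p under 0.05. On that scale SEMA3B fell by 4.37 ± 0.49 (SE) in WT clones and by 7.00 ± 0.49 in KO clones. In mean CPM without 4-OHT it was not the highest. SEMA3B was at 421 in WT and 496 in KO clones, below SEMA3C (741 and 689) and NRP1 (831 and 1016).

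The larger KO value for SEMA3B did not pass the test of the genotype difference by limma-trend over all genes (log2 difference of the changes -2.63 ± 0.70 SE, adjusted p = 0.866). Leaving out KO clone 69 with 4-OHT, so that KO clone 66 with its 0 reads stood alone, gave -3.59 and an adjusted p of 0.00025. Over that and the other alternatives the adjusted p of limma ran from 0.00025 to 0.999. Between genotypes within a table, the log2 difference of KO from WT clones was 0.24 ± 0.17 without 4-OHT and -2.39 ± 1.42 with it, and neither passed. The difference with 4-OHT passed only without KO clone 69 (-3.35, limma adjusted p = 2.07e-05), when the 0 reads of KO clone 66 stood alone. The span of SEMA3B overlaps LINC03143 by 3133 bases, SEMA3B-AS1 by 731 and MIR6872 by 62. Whether the authors counted reads by strand is not given, so reads from such overlaps cannot be told apart.

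SEMA3C, which guides neural crest and heart outflow tract cells in development, was the ligand with the most reads. Its gene lies at chromosome 7, 80742538 to 80922389. SEMA3C without 4-OHT was at 4.76 and 3.48 RPKM in WT clones 15 and 54 and at 3.91 and 3.755 RPKM in KO clones 66 and 69. Treated with 4-OHT, it was at 0.638 and 0.411 RPKM in the WT clones and at 0.502 and 0.511 RPKM in the KO clones. The values with 4-OHT lay below all values without, and within each table the KO values lay inside the range of the WT values. Reads with 4-OHT numbered 193 and 43 in the WT clones and 17 and 90 in the KO clones. The means were 7.85-fold lower in WT clones and 7.57-fold lower in KO clones. On the log2 scale SEMA3C fell by 2.96 ± 0.24 (SE) in WT clones and by 2.89 ± 0.24 in KO clones, and the genotypes differed in that change by 0.07 ± 0.34, a difference smaller than its error.

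SEMA3D, a ligand with a role in vascular and neural crest patterning, was low before treatment and close to the limit of detection after it. Its gene, at chromosome 7, 84995553 to 85250243, has the longest span of the listed genes. SEMA3D without 4-OHT was at 0.155 and 0.130 RPKM in WT clones 15 and 54 and at 0.414 and 0.236 RPKM in KO clones 66 and 69. With 4-OHT the values were 0.00869 and 0.0124 RPKM in the WT clones and 0 and 0.0298 RPKM in the KO clones, from 4, 2, 0 and 7 reads. Again all libraries with 4-OHT were below all libraries without, although 3 reads in KO clone 66 would be 0.0618 RPKM, above each of the other values with 4-OHT. SEMA3D fell in both genotypes, with a log2 change of -3.03 ± 0.75 (SE) in WT clones and -4.22 ± 0.75 in KO clones. It passed the read filter of the test only through the libraries without 4-OHT, with 52, 26, 95 and 102 reads. A fall was therefore favoured in advance. The WT call was lost when any 1 of the 4 WT libraries was left out (limma adjusted p = 0.0566 to 0.107), on log2(RPKM + 1) (0.103) and on log2(CPM + 0.5) (0.06). Both KO clones were above both WT clones without 4-OHT, with a mean 2.28-fold higher, and the share of all genes placed so was not counted. The log2 difference of 1.10 ± 0.31 did not pass. It passed only without KO clone 69 (limma adjusted p = 0.0111).

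SEMA3F, encoded near SEMA3B on chromosome 3 and known to signal through NRP2, had few reads in every library. Its gene, at 50155058 to 50189075, ends 71.15 kb before SEMA3B. Without 4-OHT it was at 0.178 and 0.447 RPKM in WT clones 15 and 54 and at 0.326 and 0.344 RPKM in KO clones 66 and 69, from 8, 12, 10 and 20 reads. Treated with 4-OHT, it was at 0.0523 and 0.250 RPKM in the WT clones and at 0 and 0.0899 RPKM in the KO clones, from 3, 5, 0 and 3 reads. The libraries with and without 4-OHT overlapped. The log2 changes were -0.90 ± 0.85 (SE) in WT clones and -2.07 ± 0.85 in KO clones and did not pass, so a change of SEMA3F was not detectable at this depth. The KO change passed only without KO clone 69 with 4-OHT (limma adjusted p = 0.0162). SEMA3B, by comparison, had 343 to 821 reads a library without 4-OHT. SEMA3F overlaps SEMA3F-AS1 by 1028 bases and the protein-coding LOC124909484 by 732.

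**Figure D1:**
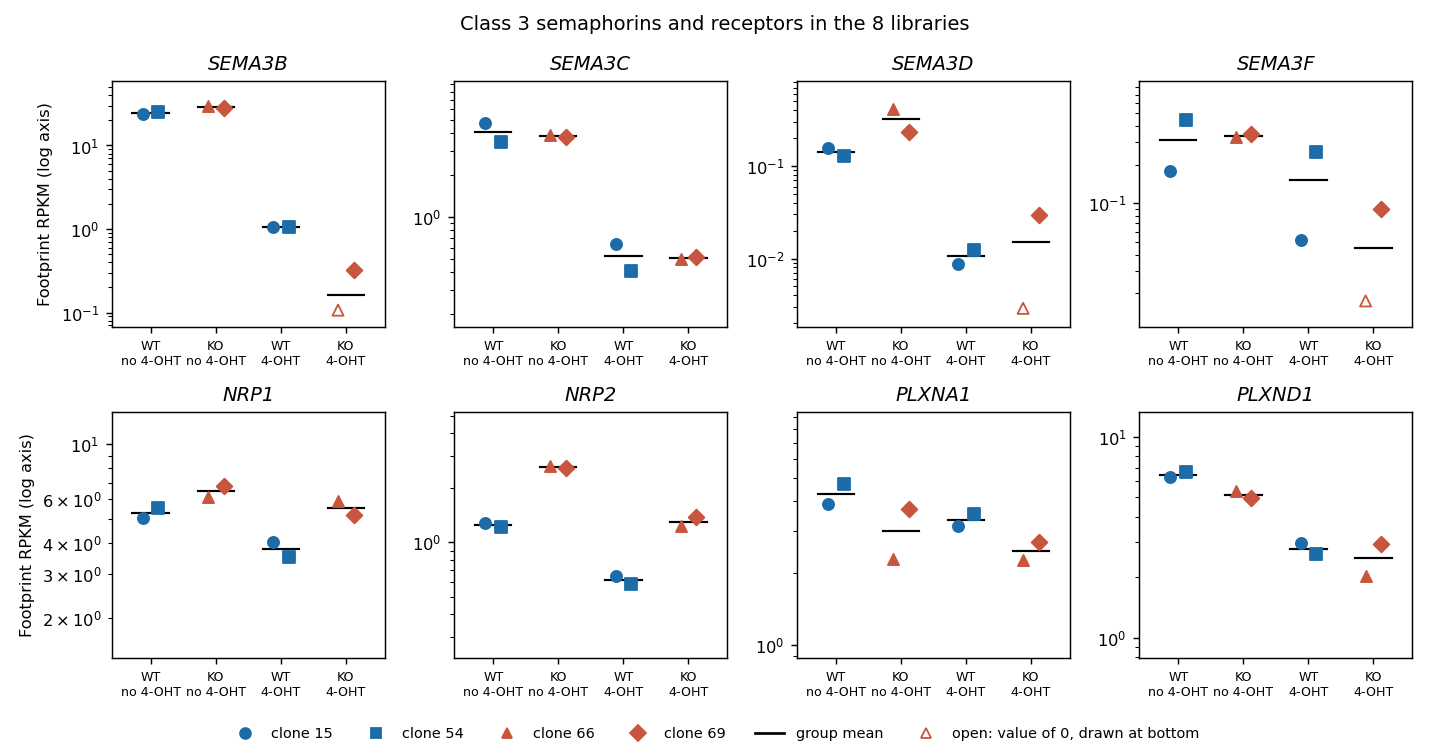
RPKM (log axis) of the 8 listed genes in each of the 8 libraries, 1 panel a gene, by genotype and 4-OHT; points are clones, bars are group means, and open points are values of 0 drawn at the foot of the panel. SEMA3B drops from 23.5 to 29.5 RPKM without 4-OHT to between 0 and 1.07 RPKM with it, while NRP1 stays between 3.52 and 6.76 RPKM.

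NRP1, the neuropilin that binds SEMA3A and VEGF-A, was the receptor with the most reads, and its change with 4-OHT did not pass. Its gene lies at chromosome 10, 33177493 to 33334667. NRP1 without 4-OHT was at 5.04 and 5.54 RPKM in WT clones 15 and 54 and at 6.16 and 6.76 RPKM in KO clones 66 and 69. Treated with 4-OHT, it was at 4.05 and 3.52 RPKM in the WT clones and at 5.91 and 5.18 RPKM in the KO clones. Each clone was lower with 4-OHT, and both KO clones were above both WT clones in each table. The share of all genes placed so was not counted. The log2 changes with 4-OHT, -0.48 ± 0.16 (SE) in WT clones and -0.22 ± 0.16 in KO clones, did not pass. The KO against WT differences, 0.29 ± 0.15 without and 0.55 ± 0.21 with 4-OHT, did not pass either. With median-ratio scaling both 4-OHT changes passed (-0.75 in WT clones and -0.56 in KO clones, limma adjusted p = 0.00519 and 0.0215), and in WT clones they also passed under 3 other settings.

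NRP2, the neuropilin preferred by SEMA3F and by VEGF-C, fell with 4-OHT to about the same degree in both genotypes and was the only listed gene called between genotypes, without 4-OHT. Its gene lies at chromosome 2, 205682501 to 205798131. Without 4-OHT it was at 1.28 and 1.21 RPKM in WT clones 15 and 54 and at 2.63 and 2.56 RPKM in KO clones 66 and 69. With 4-OHT it was at 0.651 and 0.587 RPKM in the WT clones and at 1.22 and 1.37 RPKM in the KO clones. The KO clones with 4-OHT stood at the level of the WT clones without it. NRP2 was 2.02-fold lower with 4-OHT in WT clones, and in KO clones its mean went from 2.59 ± 0.0487 to 1.30 ± 0.106 RPKM (SD, n = 2). On the log2 scale it fell by 0.99 ± 0.22 (SE) in each. The WT call was lost without WT clone 15 in the libraries without 4-OHT (limma adjusted p = 0.059), on log2(RPKM + 1) (0.106) and on log2(RPKM + 0.1) (0.0639).

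Without 4-OHT NRP2 was 2.08-fold higher in KO clones, 2.59 ± 0.0487 against 1.248 ± 0.0483 RPKM (SD, n = 2), a log2 difference of 1.04 ± 0.19 (SE) that passed by limma-trend (adjusted p = 0.018). The limma adjusted p of this difference ran from 0.00658 to 0.536 over the alternatives and was 0.0616 without WT clone 54, 0.117 without KO clone 66, 0.512 on log2(RPKM + 1) and 0.536 on log2(RPKM + 0.1). In a fit of all 8 libraries with the clone as a random block it was 0.36, and with all 8 and no block 0.374. With 4-OHT the difference was 2.10-fold and 1.05 ± 0.32 on the log2 scale and did not pass (limma adjusted p = 0.778). It passed there only without KO clone 69 (limma adjusted p = 0.0448). The ratio of NRP1 to NRP2, both per kilobase of span, was 3.93 and 4.56 in the WT clones and 2.34 and 2.64 in the KO clones without 4-OHT. With 4-OHT it was 6.22 and 5.99 in the WT clones and 4.83 and 3.77 in the KO clones.

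PLXNA1, a plexin that transmits SEMA3A and SEMA3F signals, passed no test. Its gene lies at chromosome 3, 126983115 to 127037389. PLXNA1 without 4-OHT was at 3.88 and 4.72 RPKM in WT clones 15 and 54 and at 2.29 and 3.69 RPKM in KO clones 66 and 69. Treated with 4-OHT, it was at 3.15 and 3.51 RPKM in the WT clones and at 2.25 and 2.69 RPKM in the KO clones. The KO clones were below the WT clones in each table, and the share of all genes placed so was not counted. The libraries with and without 4-OHT overlapped. The log2 changes with 4-OHT were -0.36 ± 0.26 (SE) in WT clones and -0.24 ± 0.26 in KO clones. The KO against WT differences were -0.55 ± 0.24 without and -0.43 ± 0.29 with 4-OHT. Without KO clone 69 the difference without 4-OHT was -0.89 and passed (limma adjusted p = 0.0446).

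PLXND1, a plexin of blood vessel patterning that responds to class 3 and other semaphorins, fell with 4-OHT. Its gene lies at chromosome 3, 129555214 to 129606676. PLXND1 without 4-OHT was at 6.28 and 6.66 RPKM in WT clones 15 and 54 and at 5.37 and 4.95 RPKM in KO clones 66 and 69. Treated with 4-OHT, it was at 2.96 and 2.60 RPKM in the WT clones and at 2.03 and 2.94 RPKM in the KO clones. All 4 libraries with 4-OHT were below all 4 without. PLXND1 was 2.33-fold lower in WT clones and 2.08-fold lower in KO clones, with log2 changes of -1.21 ± 0.23 and -1.07 ± 0.23 (SE). The KO against WT differences, -0.33 ± 0.18 without and -0.18 ± 0.32 with 4-OHT, did not pass.

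Across the listed genes, 5 of 8 fell with 4-OHT in WT clones, where 8.43% of the 8774 genes tested were called lower and 14.4% higher. The same count, 5 of 8, was called lower in KO clones, against a background of 11.9% lower and 18.1% higher. In both genotypes these were SEMA3B, SEMA3C, SEMA3D, NRP2 and PLXND1, and no listed gene was called higher. SEMA3D, and SEMA3F among the uncalled genes, passed the read filter only through libraries without 4-OHT, which favoured a fall in advance. All 8 were lower with 4-OHT in each of the 4 clones, and the share of all genes that were so was not counted. Some of these changes were near 0, such as -0.025 for PLXNA1 and -0.060 for NRP1 in KO clone 66 on the log2 scale. For SEMA3B, SEMA3C, SEMA3D and PLXND1 the 4 libraries with 4-OHT all lay below the 4 without, as they did for 15.9% of the genes tested. The median log2 change of the 8 was -1.10 in WT clones and -1.57 in KO clones, against 0.18 and 0.13 over all genes tested. These shares rest on genes picked with the results known, and nothing is read from them. Under median-ratio scaling the median of all genes moved to -0.07 and -0.17, and the calls over all genes changed from 1260 higher and 740 lower to 880 and 1020 in WT clones. In KO clones they changed from 1589 and 1043 to 1055 and 1481. The listed genes called lower under that scaling were 6 in each genotype, NRP1 being added.

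**Figure D2:**
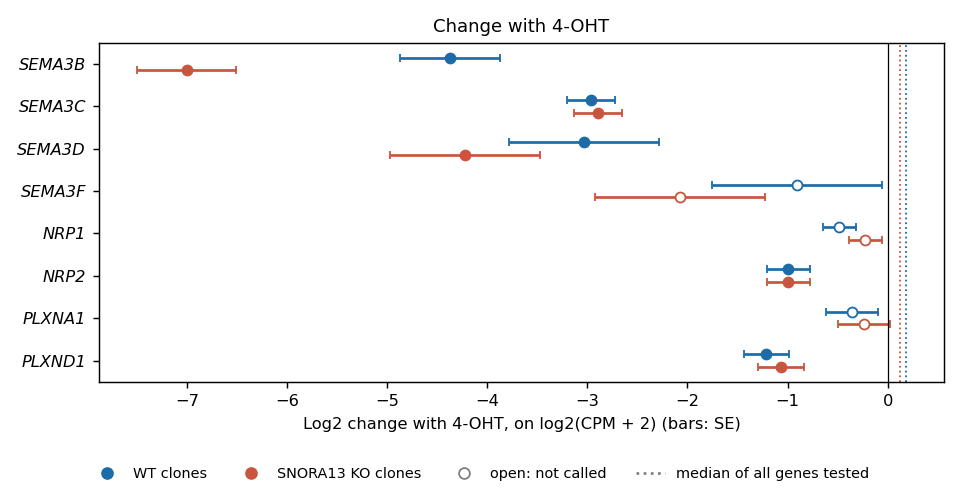
Log2 change with 4-OHT on the log2(CPM + 2) scale, with its SE, for each listed gene in WT and in KO clones; open points were not called and dotted lines are the median of all genes tested. SEMA3B lies farthest from 0 in both, at -4.37 and -7.00, and NRP1 and PLXNA1 lie nearest.

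No listed gene passed the test of the genotype difference in the 4-OHT change, and neither did any of the 8774 genes by limma-trend (0% called, 383 at an unadjusted p under 0.05, and 4 called by limma-voom). Between genotypes without 4-OHT, 1 of 8 listed genes, NRP2, was called higher, where 0.380% of 8159 genes were called higher, 0.245% lower and 0.625% in either direction. With 4-OHT none of the 6 tested was called, where 0.0258% of 7758 genes were (0.0129% higher and 0.0129% lower), 2 genes in all, with 463 at an unadjusted p under 0.05 and 56 called by limma-voom. SEMA3D and SEMA3F had too few reads to be tested there. Interval widths differed much between the genes: the SE of the KO against WT difference was 0.17 for SEMA3B without 4-OHT and 1.42 with it.

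**Figure D3:**
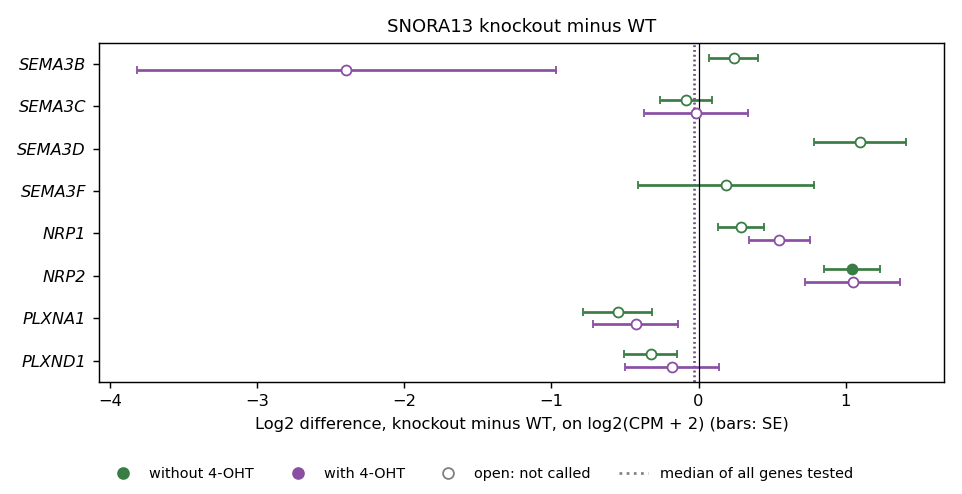
Log2 difference of KO from WT clones, with its SE, for each listed gene without and with 4-OHT on the log2(CPM + 2) scale; open points were not called and the dotted line is the median of all genes tested. NRP2 lies near 1 in both tables, at 1.04 and 1.05, and SEMA3B with 4-OHT has the widest error, 1.42.

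Summed footprints of the 4 listed ligands were below those of the 4 listed receptors in every library, and by far more with 4-OHT. Ligand CPM was 1309 and 1108 in WT clones 15 and 54 and 1332 and 1228 in KO clones 66 and 69 without 4-OHT. With 4-OHT it was 137 and 104 in the WT clones and 90.2 and 108 in the KO clones. Receptor CPM was 1474 and 1609 in the WT clones and 1673 and 1814 in the KO clones without 4-OHT, and 1035 and 945 in the WT clones and 1297 and 1270 in the KO clones with it. The ratio of ligand to receptor footprints was thus 0.889, 0.688, 0.796 and 0.677 without 4-OHT and 0.132, 0.110, 0.0696 and 0.0851 with it. SEMA3C held 52.8% to 65.4% of ligand reads without 4-OHT and 71.0% to 100% with it, and SEMA3B 31.1% to 39.2% and 0% to 17.8%. The 100%, the 0% and the ratio of 0.0696 came from KO clone 66 with 4-OHT and rest on 17 ligand reads. The other libraries with 4-OHT had 231 (WT clone 15), 61 (WT clone 54) and 105 (KO clone 69) ligand reads. The sums were not divided by coding length, so ligands below receptors holds for summed footprints only and not for levels per length of coding sequence. Footprints count ribosomes on mRNA, and neither RNA nor secreted protein was analysed here.

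**Figure D4:**
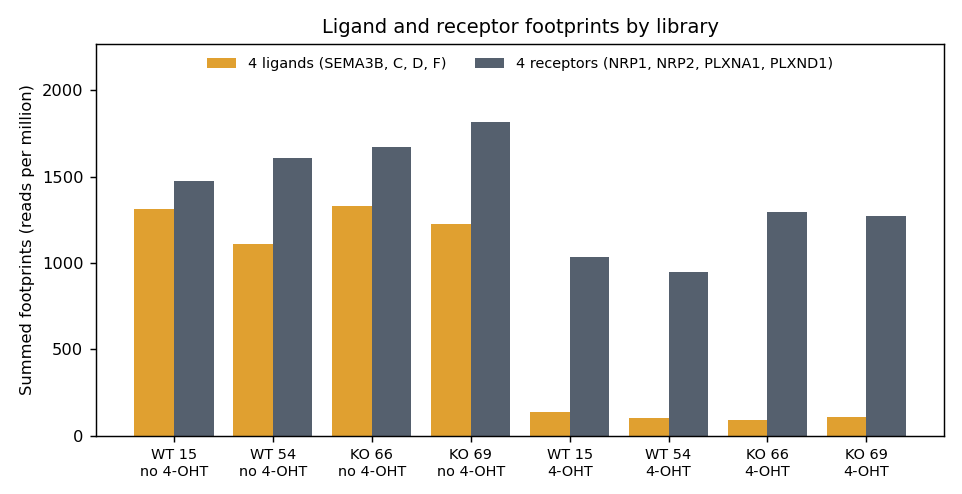
Summed CPM of the 4 listed ligands and of the 4 listed receptors in each library, by clone and 4-OHT. Ligand sums lie between 1108 and 1332 CPM without 4-OHT and between 90.2 and 137 CPM with it, and receptor sums lie between 945 and 1814 CPM throughout.

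Ordered by median RPKM per kilobase of genomic span, the listed genes ran from SEMA3B (26.4) through NRP1 (5.85), PLXND1 (5.83), SEMA3C (3.83), PLXNA1 (3.78), NRP2 (1.92) and SEMA3F (0.335) to SEMA3D (0.195) without 4-OHT. Neighbours whose libraries overlapped were NRP1 and PLXND1, SEMA3C and PLXNA1, PLXNA1 and NRP2, and SEMA3F and SEMA3D. With 4-OHT the order was NRP1 (4.61), PLXNA1 (2.92), PLXND1 (2.77), NRP2 (0.937), SEMA3B (0.689), SEMA3C (0.506), SEMA3F (0.0711) and SEMA3D (0.0106). The libraries overlapped between PLXNA1 and PLXND1, NRP2 and SEMA3B, SEMA3B and SEMA3C, and SEMA3F and SEMA3D. SEMA3B went from the first to the fifth place. The span holds introns, so this order is not one of levels per length of mRNA.

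Other genes of semaphorin signalling moved in both directions. Of 64 genes in 7 lists, 37 were tested for the 4-OHT change, of which 6 rose and 11 fell in WT clones and 7 rose and 13 fell in KO clones. Over all genes tested, 14.4% were called higher and 8.43% lower in WT clones, and 18.1% and 11.9% in KO clones. Higher calls thus outnumbered lower ones over all genes. The exceptions were median-ratio scaling and, in KO clones, leaving out clone 69 with 4-OHT (2100 higher and 2159 lower). None of the 37 passed the test of the genotype difference. Between genotypes 1 of 37 was called without 4-OHT and 0 of 33 with it, where 0.625% and 0.0258% of all genes tested were called. The lists were chosen with results known, and nothing is read from these counts. SEMA3E and SEMA3G, the remaining class 3 ligands, were not listed.

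Among semaphorins of other classes, 7 of 13 were tested, and 1 rose and 3 fell in WT clones and 1 rose and 4 fell in KO clones. SEMA7A, a membrane-anchored semaphorin that acts through integrins and plexin C1, rose from 5.79 ± 0.512 to 22.0 ± 0.868 RPKM (SD, n = 2) in WT clones and from 5.04 ± 0.186 to 27.2 ± 0.254 RPKM in KO clones. SEMA6A, SEMA4C and SEMA5A fell, with log2 changes of -3.97, -1.995 and -2.09 in WT clones and -2.80, -1.85 and -0.88 in KO clones. Both SEMA4C calls were lost on log2(CPM + 0.5) (limma adjusted p = 0.0559 in WT and 0.0562 in KO clones). In KO clones SEMA4C did not pass by limma-voom either (-1.29, adjusted p = 0.105). The KO call of SEMA5A was lost on log2(RPKM + 1) (limma adjusted p = 0.0678) and log2(RPKM + 0.1) (0.124). SEMA4D was called lower in KO clones, from 0.197 ± 0.0162 RPKM to 0 in both libraries. Those KO values without 4-OHT were 25.5 and 28.7 CPM, where 1 read with 4-OHT was 5.25 CPM in clone 66 and 1.02 in clone 69. In WT clones SEMA4D went from 0.133 ± 0.0843 to 0.0253 ± 0.000834 RPKM. That log2 change of -1.76 ± 0.72 (SE) did not pass by limma-trend (adjusted p = 0.107) but did by limma-voom (adjusted p = 0.0322). The median log2 change of the tested genes was -1.76 in WT clones and -1.02 in KO clones, against 0.18 and 0.13 over all genes tested.

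Of the other plexins 5 of 7 were tested, and 3 fell in each genotype: PLXNB1, PLXNB2 and PLXNA3. PLXNB2, the highest of them per kilobase of span, fell from 25.9 ± 0.903 to 10.3 ± 1.15 RPKM (SD, n = 2) in WT clones and from 26.0 ± 0.00962 to 5.65 ± 2.32 RPKM in KO clones. The log2 changes of PLXNB1 were -2.24 in WT and -3.43 in KO clones, and those of PLXNA3 were -1.08 and -1.535. L1CAM, the only 1 of 4 adhesion co-receptors tested and a partner of NRP1, fell from 52.3 ± 3.24 to 20.4 ± 0.540 RPKM in WT clones and from 56.4 ± 6.30 to 10.4 ± 5.65 RPKM in KO clones. Of the VEGF family 2 of 7 were tested. VEGFC, a ligand of NRP2, rose by 1.83 in WT and 2.64 in KO clones on the log2 scale, and FLT1, a VEGF receptor, fell by 1.19 in KO clones.

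Of 6 proteases that cut class 3 semaphorins or neuropilins, 4 were tested. ADAMTS1, a secreted protease with thrombospondin repeats, fell from 273 ± 11.8 to 8.02 ± 2.39 RPKM (SD, n = 2) in WT clones and from 485 ± 41.3 to 6.38 ± 1.72 RPKM in KO clones. It was also the gene of these lists that differed between genotypes without 4-OHT, 0.82 ± 0.14 (SE) higher in KO clones on the log2 scale (limma adjusted p = 0.0105). That call was lost without KO clone 66 (limma adjusted p = 0.0866), and the adjusted p was 0.359 on the log2(RPKM + 1) scale and 0.874 with all 8 libraries and the clone as a random block. ADAM10 fell, with log2 changes of -0.86 in WT and -1.10 in KO clones. FURIN, which activates or inactivates semaphorins by cutting them, rose by 1.38 in KO clones. That call was lost under median-ratio scaling (1.06, limma adjusted p = 0.0625) and with only the 4 KO libraries (limma adjusted p = 0.0706). In WT clones FURIN rose by 1.06 ± 0.40 (SE) and did not pass (limma adjusted p = 0.0802). It passed there by limma-voom (adjusted p = 0.0156) and with only the 4 WT libraries (limma adjusted p = 0.00753). The genotypes differed in the FURIN change by 0.33 ± 0.56, which did not pass.

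Signalling partners inside the cell gave 18 tested genes of 25, of which 4 rose and 2 fell in each genotype. PAK1, a kinase of actin turnover, rose by 2.49 in WT and 2.33 in KO clones. MICAL2, an actin-oxidising enzyme, rose by 2.18 and 2.70, and the kinase FYN by 1.40 and 2.08. DPYSL2, the collapsin response mediator that follows SEMA3A in axons, fell, with log2 changes of -1.62 and -1.37. The remaining calls, named after their values were seen, were GIPC1 higher in WT clones, RRAS higher in KO clones and FARP1 lower in both. The WT calls of PLXNB1, PLXNA3, SEMA4C and VEGFC were lost when any 1 of the 4 WT libraries was left out (limma adjusted p = 0.0697 to 0.223), and those of L1CAM, FYN and ADAM10 without at least 1 of them. The KO calls of SEMA4C and FURIN were lost without 3 of the 4 KO libraries in turn, and those of SEMA5A and SEMA6A without 1.

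**Figure D5:**
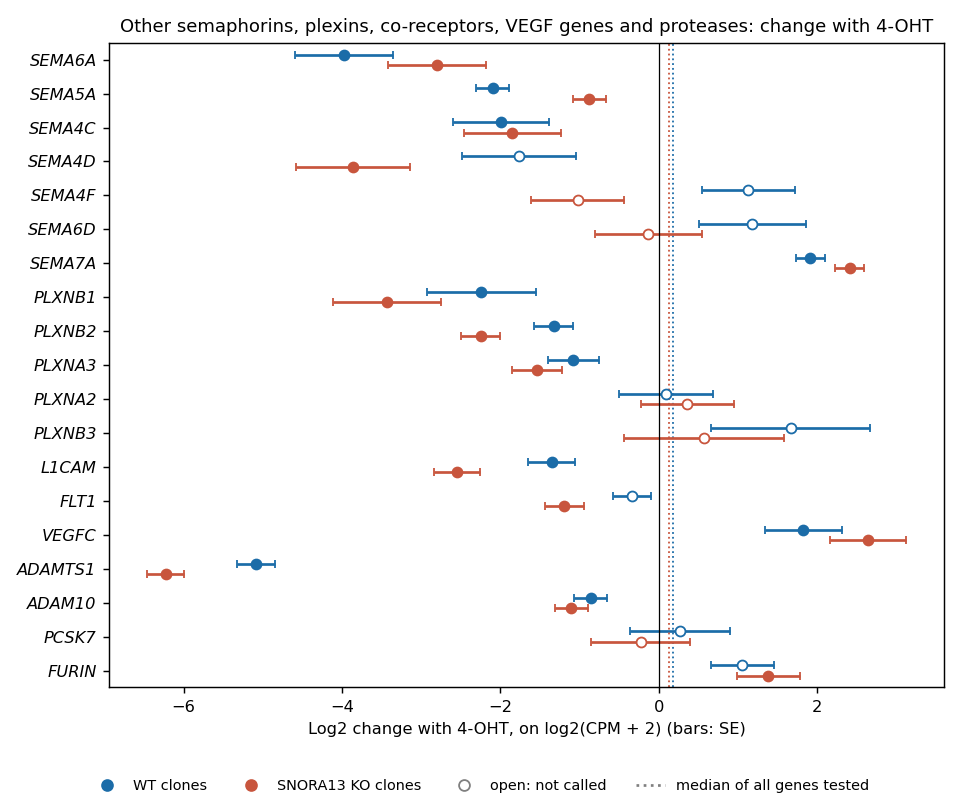
Log2 change with 4-OHT in WT and KO clones of the tested semaphorins of other classes, other plexins, L1CAM, VEGF genes and proteases, on the log2(CPM + 2) scale with SE bars; open points were not called and dotted lines are the median of all genes tested. ADAMTS1 lies lowest, at -5.09 and -6.22, and VEGFC and SEMA7A lie above 0 in both genotypes.

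The genes with the most similar profile over the 8 libraries were found for the 6 listed genes with enough reads, as the smallest root-mean-square distance between centred log2(CPM + 2) profiles among 6337 genes. For SEMA3B they were ADAMTS5 (0.531), a matrix protease, and COL16A1 (0.579), a minor collagen. For SEMA3C they were LRP1 (0.213), an endocytic receptor, and COL5A2 (0.234), a fibrillar collagen chain. PLXND1 lay closest to RAPH1 (0.109) and SLFN5 (0.120), NRP1 to CHD8 (0.106) and NUP98 (0.117), PLXNA1 to MANBAL (0.116) and LTBR (0.146), and NRP2 to USP33 (0.300) and SLC22A4 (0.311). The distances of SEMA3B and NRP2 were larger than those of the other 4. The 8 libraries are shared by all genes, so these distances describe the profiles only.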

How the data were processed

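The 9 genes, the gene lists and the tests were chosen with earlier results of these data known. Footprints were deposited as 1 table without and 1 table with 4-OHT, each with 1 column per clone. The tables name no unit, and the deposited values were read as RPKM per kilobase of genomic span from the values themselves. Reads were aligned with STAR to GRCh38, per the submitters' processing notes. Not given in the sources used here were versions, the read counter, its strand setting and the annotation.

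Spans came from RefSeq GRCh38.p14, matched without 4-OHT for 11345 of 11546 genes by identifier, 17 by symbol and 79 by synonym, and with 4-OHT for 10884 of 11079, 16 and 75. The unmatched 105 and 104 genes were not tested. RPKM times span gave CPM. Reads were recovered from the step between low values, of which 78.4% to 82.9% lay within 0.1 of a whole number. They are approximate, since the authors' spans may differ. Floors of 3 reads cover counting error only.

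The test was limma-trend (limma 3.58.1 in R 4.3.3) on log2(CPM + 2), for genes with at least 10 reads in at least 2 libraries, with Benjamini-Hochberg adjustment over all genes and a threshold of 0.05. CPM was used because division by the span puts low genes below the pseudocount of log2(RPKM + 1), as it did SEMA3D and SEMA3F in every library. Changes with 4-OHT and the genotype difference in them were fitted on all 8 libraries, and KO against WT on the 4 of a table. For the changes with 4-OHT a gene could thus pass the read filter by its libraries without 4-OHT, which favours a fall. Of the named genes, SEMA3D, SEMA3F, SEMA4D, SEMA6A and PLXNB1 did not pass that filter within the libraries with 4-OHT. Each clone was 1 replicate. Nothing states that the libraries of a clone are more than 1 culture, so p-values measure the spread between clones of a group, pooled over the groups of a fit. A gene therefore has the same SE for its 4-OHT change in WT and in KO clones. The main fit of all 8 libraries had no clone term, so the libraries of a clone without and with 4-OHT entered it unpaired. In simulated counts with a log2 change of 2, 96.5% of changed genes were recovered for 4-OHT in WT clones and 93.5% in KO clones. The share was 77% for the genotype difference in the change, and 97% and 80.5% for KO against WT without and with 4-OHT. False calls numbered 0, 5, 4, 5 and 0 in the same order. These shares hold for that size of change over all changed genes, 200 in each comparison, and were not given apart for genes with few reads. An adjusted p depends on how many genes change, so the shares are not the power of these tests in the data.

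The same clone was collected without and with 4-OHT, so clone numbers pair libraries by the labels. Over 6344 genes the deviations of paired libraries correlated at 0.133 for clones 15 and 54 and at -0.0293 for clones 66 and 69.

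Named genes were the 9 genes, up to 3 called genes of largest change per list and comparison, and the 2 nearest profiles among genes of at least 20 CPM. Marker lists not described in the report took, without and with 4-OHT, 0.00121% to 0.00270% and 0.00246% to 0.00849% of reads (neural and Schwann), 0.00645% to 0.00798% and 0.00136% to 0.00524% (melanocyte), 0% to 3.79e-04% and 0.00102% to 0.00458% (keratinocyte) and 0.0152% to 0.0300% and 0.0273% to 0.0414% (leukocyte).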

Additional observations from a re-analysis of the deposited data

How the results depend on the processing

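Each library was left out in turn, and other pseudocounts, filters, scaling, limma-voom, other sets of libraries and a replicate block were tried. The number of genes called for 4-OHT in WT clones was 2000, 3128 with only the 4 libraries of that genotype and 1029 to 1309 with a library left out (1100, 1029, 1309 and 1119 without clone 15 and 54 before and clone 15 and 54 after 4-OHT). In KO clones it was 2632, 1719 with only those 4 libraries and 1359 to 4259 with a library left out, lowest without clone 66 before 4-OHT and highest without clone 69 after it. The listed genes called numbered 3 on log2(RPKM + 1) in WT clones, and 3 to 4 in WT and 5 to 6 in KO clones with a library left out. The genotype difference gave 4 genes by limma-voom and 0 to 758 with a library left out, with 0 to 1 listed genes; 758 came without KO clone 69 with 4-OHT.

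KO against WT without 4-OHT gave 51 genes, 0 on log2(RPKM + 1) and 0 on log2(RPKM + 0.1), 3 with all 8 libraries and 3 with the clone as a random replicate block. It gave 29 (without KO clone 66) to 225 (without KO clone 69) with a library left out. The listed genes called there numbered 0 under each of those 4 settings and 0 to 3 with a library left out. With 4-OHT the 2 genes became 0 on log2(RPKM + 1), 0 on log2(RPKM + 0.1), 4 with log2(CPM + 8), 56 by limma-voom, 1 with all 8 libraries, 1 with the replicate block and 17 to 1576 with a library left out, highest without KO clone 69, with 0 to 2 listed genes. The NRP2 call without 4-OHT was lost with all 8 libraries both without and with the clone as a random replicate block (limma adjusted p = 0.374 and 0.36), and no other call of a listed gene differed with the block.

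Signs turned only in values that had not passed. For the genotype difference in the change these were NRP2 (-0.172, -0.0399, -0.0256 and -0.0644 on log2(RPKM + 1), log2(RPKM + 0.1), log2(CPM + 8) and with median-ratio scaling), MICAL2 (-0.0164 on log2(RPKM + 1)), PAK1 (0.20 and 0.0328 on log2(RPKM + 1) and log2(RPKM + 0.1)) and SEMA6A (-0.0751 on log2(RPKM + 1)). For KO against WT with 4-OHT they were FLT1 (0.0051 by limma-voom) and SEMA4C (-0.0034 with log2(CPM + 0.5), -0.00080 with median-ratio scaling). With a library left out, the 4-OHT change of PLXNA1 in KO clones ran from -0.58 to 0.10. The genotype difference in the change ran from -0.24 to 0.38 for SEMA3C, -0.0804 to 0.0847 for NRP2, -0.22 to 0.46 for PLXNA1 and -0.12 to 0.41 for PLXND1. It ran from -0.50 to 0.0083 for ADAM10, -0.25 to 0.90 for FURIN, -0.0428 to 1.09 for MICAL2, -0.45 to 0.13 for PAK1, -0.77 to 1.06 for SEMA4C and -0.0768 to 1.71 for VEGFC. KO against WT without 4-OHT ran from -0.31 to 0.14 for SEMA3C, -0.36 to 0.73 for SEMA3F, -0.27 to 0.19 for DPYSL2, -0.0843 to 0.0134 for FYN, -0.0083 to 0.22 for L1CAM, -0.0308 to 0.0403 for PLXNB2, -0.32 to 0.0761 for SEMA4C and -0.19 to 0.0319 for SEMA5A. With 4-OHT it ran from -0.33 to 0.29 for SEMA3C, -0.44 to 0.0818 for PLXND1, -0.52 to 0.18 for FLT1, -0.78 to 0.37 for FURIN, -0.89 to 0.25 for MICAL2 and -0.32 to 0.94 for SEMA4C. The cause was not tested.

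A planned comparison of levels per coding length was not run. Where a library was left out, its group held 1 library, assumed to vary like the others. The 190580 reads of KO clone 66 with 4-OHT limit what can be seen of low genes there, and 4-OHT cannot be told apart from the table.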
